A study of Mus musculus with 11 samples.

Results

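The desmosome is a spot-like junction that ties neighbouring epithelial cells together and anchors their keratin filaments. Its adhesive span is built from cadherins of a pair of families, the desmogleins and the desmocollins. Inside the cell plakoglobin (Jup) and plakophilins (here Pkp2) bind the cadherin tails, and desmoplakin (Dsp) links them to keratins, in hepatocytes those formed by Krt8 and Krt18. Simple epithelia such as liver rely mainly on desmoglein 2 and desmocollin 2, whereas desmoglein 1 is best known from the upper layers of the epidermis, and in the mouse it is encoded by 3 near-identical paralogues, Dsg1a, Dsg1b and Dsg1c.

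The signals of 8 desmosome genes (Dsg1a, Dsg1b, Dsg1c, Dsg2, Dsc2, Dsp, Jup and Pkp2) were followed across 4 genotypes. Each gene has 1 row in the deposited table that carries its symbol alone, no row names a member together with another gene, and all 8 were among the 18337 genes tested, of 30142 genes with a named row. RNA came from hepatocytes of 12-week-old male mice and was hybridised to 11 whole-transcript arrays. The groups were mice with Nemo deleted in the liver and Cxcr6 knocked out (double KO, n = 3), mice with the liver deletion of Nemo alone (Nemo KO, n = 3), mice with the Cxcr6 knockout alone (Cxcr6 KO, n = 3) and wildtype mice (n = 2). Nemo is the non-catalytic part of IkB kinase and is needed for NF-kB activation, and Cxcr6 is a chemokine receptor of T and NKT cells. The source names give the double KO and Cxcr6 KO mice as Cre-positive and Cre-negative animals of 1 line, and the Nemo KO and wildtype mice as Cre-positive and Cre-negative animals of another. Cxcr6 status and mouse line therefore cannot be told apart. The labels do not name the promoter that drives Cre. Sample titles number the arrays of every genotype as biological replicates, and give no animal identifiers. The p-values measure the spread between these samples, which may be partly technical.

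All values below are log2 signals, normalized by the authors with RMA, and 1 unit is a 2-fold difference in signal. Array medians lay between 5.19 and 5.38, so a signal near 5.3 is close to background. The 10 hepatocyte markers averaged between 18.04 and 18.27 in every array, where the highest value in the table was 19.93. The wildtype arrays correlated with each other less (0.984 across all rows) than replicates of the other groups did (0.990 to 0.995).

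The desmoglein 1 genes were lowest in Nemo KO hepatocytes, and the plot of signals by array shows the same order of genotypes in all 3 paralogues. Dsg1c had signals of 7.35, 6.80 and 7.18 in double KO, 6.26, 6.41 and 7.10 in Nemo KO, 7.80, 7.77 and 7.48 in Cxcr6 KO, and 9.09 and 8.77 in wildtype. Every array of the 3 mutant genotypes thus lay below both wildtype arrays, every array with Nemo deleted lay below every array with Nemo intact, and double KO and Nemo KO overlapped. Dsg1a had signals of 6.28, 5.88 and 6.09 in double KO, 5.71, 5.75 and 6.16 in Nemo KO, 6.54, 6.49 and 6.29 in Cxcr6 KO, and 7.27 and 7.14 in wildtype. Dsg1b had signals of 6.50, 6.12 and 6.36 in double KO, 6.09, 6.12 and 6.36 in Nemo KO, 6.87, 6.71 and 6.56 in Cxcr6 KO, and 7.47 and 7.17 in wildtype. In both genes the wildtype arrays were again highest, Cxcr6 KO came next and the groups with Nemo deleted overlapped each other at the bottom.

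**Figure D1:**
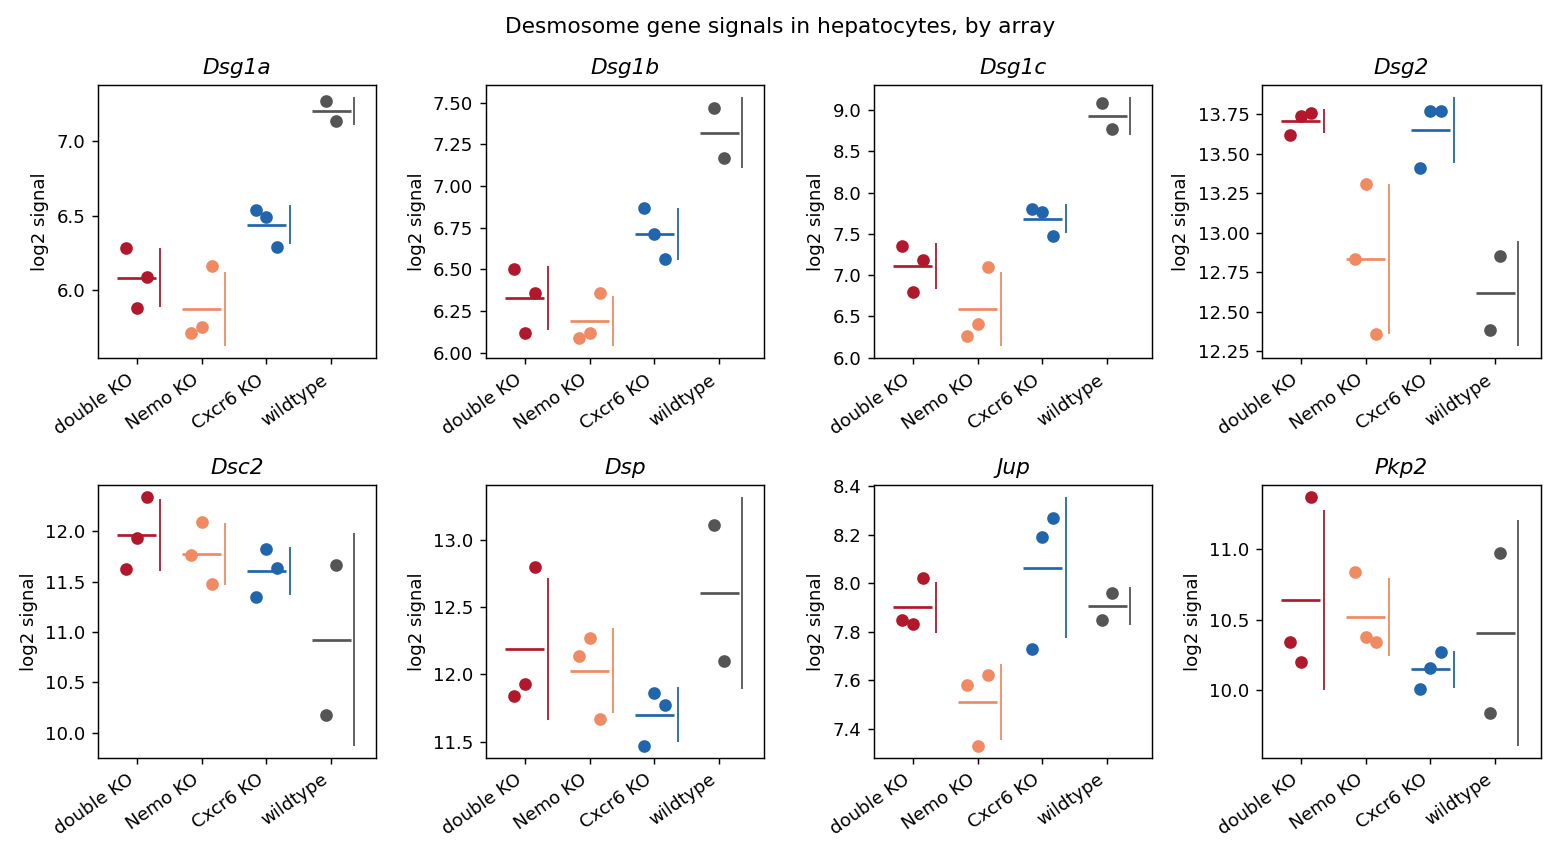
Log2 signal (vertical axis, its own scale in each panel) of the 8 desmosome genes in each array, by genotype. Points are arrays, horizontal lines group means and vertical lines ± 1 SD (n = 3, wildtype n = 2). The 3 Dsg1 genes were highest in wildtype, at 8.77 and 9.09 for Dsg1c, and Dsg2 lay at 13.41 or above in all double KO and Cxcr6 KO arrays and at 13.31 or below in all Nemo KO and wildtype arrays.

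The 3 rows cannot be taken as independent measurements. Their Pearson correlations over the 11 arrays were 0.995 for Dsg1a with Dsg1c, 0.989 for Dsg1a with Dsg1b and 0.983 for Dsg1b with Dsg1c. After subtraction of each group's mean they were still 0.980, 0.914 and 0.893 in the same order, as descriptions over arrays that share their normalization. The paralogues are near-identical in sequence, their probes may cross-hybridise, and the probe sequences were not analysed here. Signal of 1 transcript could therefore appear in all 3 rows, and the amplitude differed among them: the range over the 11 arrays was 2.83 for Dsg1c, 1.56 for Dsg1a and 1.38 for Dsg1b. The plot of the paralogue rows against each other shows the arrays along a single line.

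**Figure D2:**
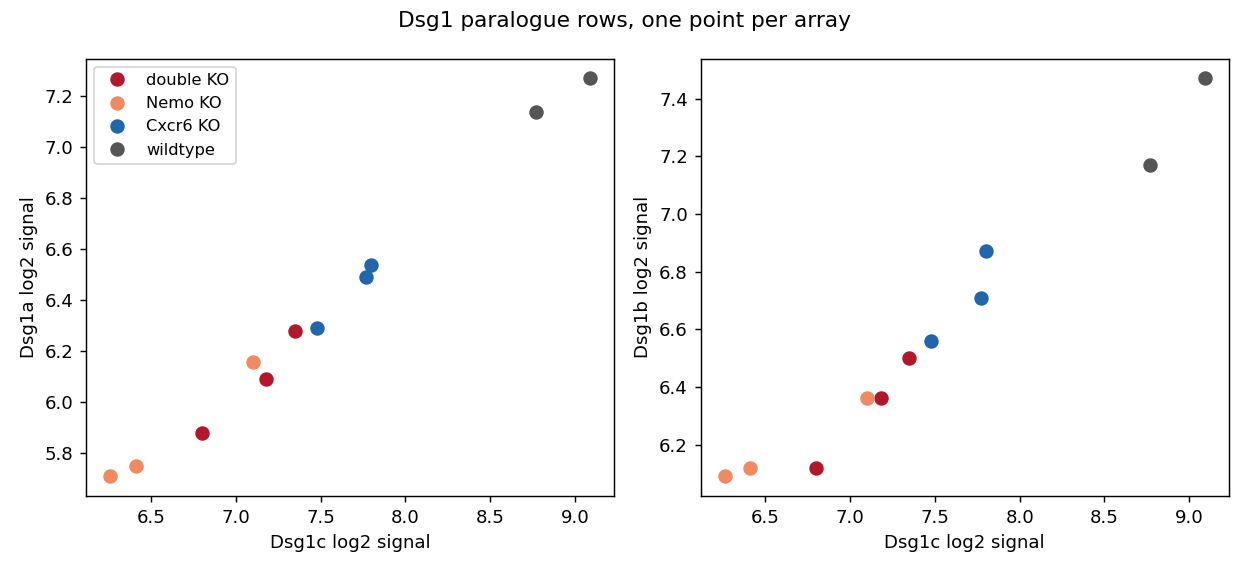
Log2 signal of Dsg1a (left) and Dsg1b (right) against that of Dsg1c, 1 point per array, coloured by genotype. The arrays fall along 1 line in both panels, with Nemo KO replicates 1 and 2 at the low end and the wildtype arrays at the high end.

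Nemo deletion with Cxcr6 intact was measured by Nemo KO against wildtype. Dsg1c fell by 2.34 ± 0.26 on the log2 scale (SE), a signal 5.06-fold lower, with means of 6.59 ± 0.45 in Nemo KO (SD, n = 3) and 8.93 ± 0.22 in wildtype (n = 2; limma adjusted p = 0.0317). Dsg1a fell by 1.33 ± 0.16 (2.52-fold lower, 5.87 ± 0.25 in Nemo KO and 7.21 ± 0.09 in wildtype, limma adjusted p = 0.0408), and Dsg1b fell by 1.13 ± 0.15 (2.19-fold lower, 6.19 ± 0.15 in Nemo KO and 7.32 ± 0.21 in wildtype, limma adjusted p = 0.0415). Since the Nemo KO signals approach the array medians, these folds are ratios of signals and may understate the ratio of RNA amounts. By unadjusted p, Dsg1c ranked 4th, Dsg1a 8th and Dsg1b 17th of 18337 genes. In all, 3 of 8 members were lower and none higher at 5%, against 0.109% of all genes tested that were lower (20 genes) and 0.0491% that were higher (9 genes). The 3 are the Dsg1 rows, which cannot be taken as independent, and members were chosen with earlier results of these data known. The count is therefore a description. With each array centred on its median the split of all genes was 1188 lower and 86 higher, and the 3 Dsg1 genes still passed. The number of genes lower also turned on single arrays: it was 2009 without wildtype replicate 2, 879 without Nemo KO replicate 3 and 131 without wildtype replicate 1. It was 0 to 5 without any 1 of Nemo KO replicates 1 and 2, Cxcr6 KO replicates 1, 2 and 3 and double KO replicates 2 and 3.

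These calls were sensitive to which arrays were in the fit. Quantile normalization left 2 of the 3, and an analysis with array weights, with a replicate block or of these 2 groups alone left none. Left out 1 at a time, Cxcr6 KO replicates 1, 2 and 3 and Nemo KO replicates 1 and 2 each took the number of members called to 0. Double KO replicates 2 and 3 each took it to 1, Dsg1c. The log2 fold change of Dsg1c stayed between -2.60 and -2.17 across all alternatives and its unadjusted p was at most 0.000833, while its adjusted p ran from 0.00865 to 0.319. Without wildtype replicate 1 the Dsg1b call was lost (-0.98, limma adjusted p = 0.0591), and without wildtype replicate 2 all 3 Dsg1 genes passed.

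Nemo deletion in the Cxcr6-deficient line was measured by double KO against Cxcr6 KO, which shares no array with the comparison above. Dsg1c was 0.58 ± 0.23 lower (means 7.11 ± 0.28 in double KO and 7.68 ± 0.18 in Cxcr6 KO), Dsg1a 0.36 ± 0.15 lower and Dsg1b 0.39 ± 0.14 lower. None passed over all genes (limma adjusted p = 0.136, 0.146 and 0.105). The groups did not overlap for any of the 3, but the gaps were only 0.13, 0.01 and 0.06, and 24.4% of all genes tested were lower without overlap in this comparison. No member was called here in either direction, against 3.44% of all genes that were higher and 3.96% that were lower, together 7.41%. With array weights in the fit all 3 Dsg1 genes passed, and 4692 genes were called instead of 1358.

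Averaged over both Cxcr6 states, the Nemo effect was -1.46 ± 0.17 for Dsg1c, -0.85 ± 0.11 for Dsg1a and -0.76 ± 0.10 for Dsg1b (limma adjusted p = 0.00508, 0.00654 and 0.00698). These calls held under all 18 alternatives tried for each gene, with log2 fold changes of Dsg1c between -1.61 and -1.37. The lowest-mean row, 1 of the 18, is the same row for these genes, so it could not change their fold changes. The 6 arrays with Nemo deleted ran from 6.26 to 7.35 for Dsg1c, with a median of 6.95, and the 5 with Nemo intact from 7.48 to 9.09, with a median of 7.80. In this average 3 of 8 members were lower and none higher, against 15.4% of all genes that were lower and 4.84% that were higher, together 20.3%. The 3 are again the Dsg1 rows, so this count has the same limits as the count for Nemo KO against wildtype. By fold, Dsg1c was the 25th lowest of 18337 genes. Without overlap, 7.12% of all genes were lower in arrays with Nemo deleted.

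**Figure D3:**
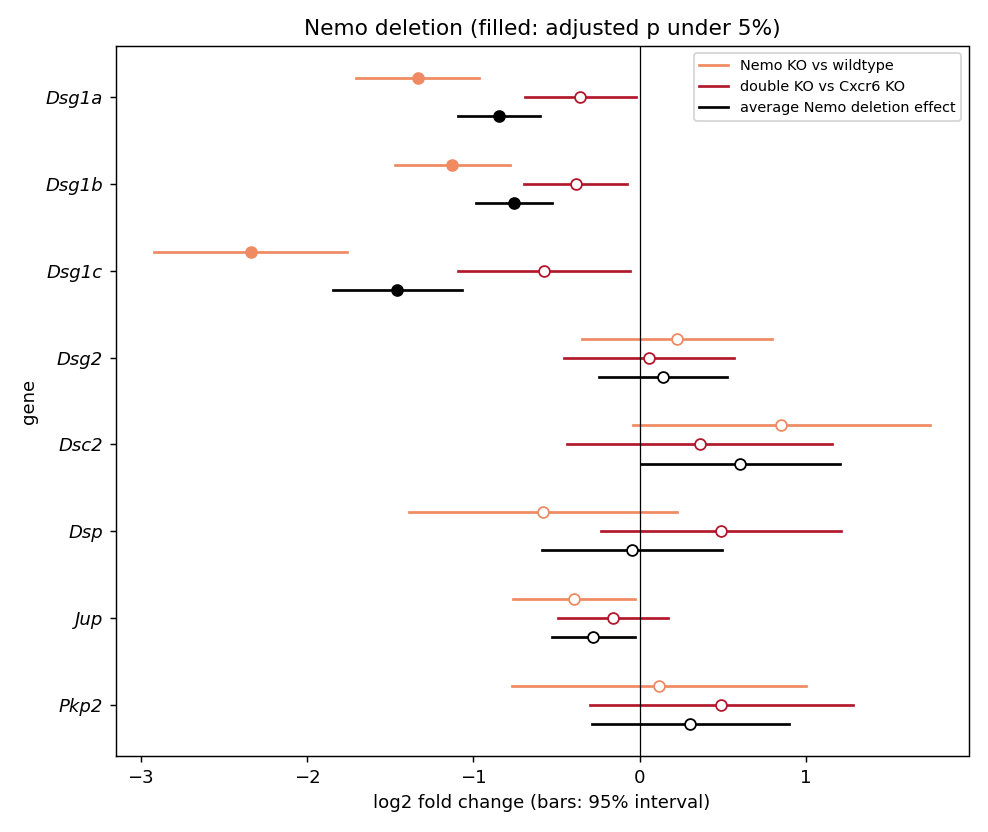
Log2 fold changes of the 8 genes for Nemo KO against wildtype, double KO against Cxcr6 KO and the average of both. Bars are 95% intervals from the fit, and filled points passed an adjusted p of 5%. The 3 Dsg1 genes lay below 0 in every comparison, at -2.34 for Dsg1c in Nemo KO against wildtype, while intervals of Dsg2, Dsp and Pkp2 crossed 0 in all 3 comparisons.

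The size of the Dsg1 difference was compared between the Cxcr6 states with the interaction, the Nemo effect in the Cxcr6-deficient line minus that in the Cxcr6-intact line. It was 1.76 ± 0.34 for Dsg1c, 0.98 ± 0.22 for Dsg1a and 0.74 ± 0.20 for Dsg1b, with 95% intervals of 0.99 to 2.54, 0.48 to 1.48 and 0.28 to 1.20. The unadjusted limma p-values were 0.000594, 0.00157 and 0.00541, and none passed over all genes (limma adjusted p = 0.251, 0.251 and 0.266). By limma no gene of 18337 passed 5% in the interaction, while 2155 (11.8%) had an unadjusted p under 0.05. A difference between the 2 Nemo effects is therefore not shown. In the comparison of Cxcr6 KO with wildtype, where Nemo was intact, Dsg1c was lower by 1.25 ± 0.26, Dsg1a by 0.77 ± 0.16 and Dsg1b by 0.61 ± 0.15 (limma adjusted p = 0.112, 0.125 and 0.174). No member was called there, against 0.175% of all genes that were higher and 0.0818% that were lower. Without overlap, 11.2% of all genes were lower in Cxcr6 KO, as the 3 Dsg1 genes and Dsp were, and 12.7% were higher, as Dsg2 was. The wildtype arrays enter the interaction and both comparisons with wildtype.

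Other desmosomal cadherins of the epidermis gave no signal that could be followed. Dsg3, Dsg4, Dsc1 and Dsc3 lie in the same gene cluster as the members Dsg1a, Dsg1b, Dsg1c, Dsg2 and Dsc2, and had signals between 4.54 and 5.06 in all 11 arrays, below the level for testing of 5.27. Markers of keratinocytes (8 genes, of which 4 were tested) averaged between 4.97 and 5.18 in all arrays. Their group means were 4.99 in double KO and 5.10 in Nemo KO, against 5.09 in Cxcr6 KO and 5.03 in wildtype. None of the 4 was called in Nemo KO against wildtype, where only 0.158% of all genes tested were called. None was called in the average Nemo effect either, where 20.3% of all genes were. In Nemo KO against wildtype 3 of the 4 estimates were higher and 1 lower. In double KO against Cxcr6 KO all 4 were lower, with a median of -0.14 against -0.06 over all genes. Of these markers Krt1, Krt5, Krt14 and Trp63 had group means between 4.46 and 5.53. Lor was the highest of the 8, with group means from 5.99 in wildtype to 6.25 in Cxcr6 KO. Fewer cells expressing a gene and less RNA per cell cannot be told apart in RNA from bulk hepatocytes.

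Desmoglein 2, the main desmoglein of simple epithelia, was higher in the Cxcr6-deficient line. Dsg2 had signals of 13.62, 13.74 and 13.76 in double KO, 12.83, 13.31 and 12.36 in Nemo KO, 13.41, 13.77 and 13.77 in Cxcr6 KO, and 12.38 and 12.85 in wildtype. All 6 arrays of the Cxcr6-deficient line lay above all 5 of the Cxcr6-intact line, by at least 0.10. The mean was 13.71 ± 0.08 in double KO against 12.83 ± 0.47 in Nemo KO, a difference of 0.87 ± 0.23. It was 13.65 ± 0.21 in Cxcr6 KO against 12.61 ± 0.33 in wildtype, a difference of 1.04 ± 0.25. Neither passed alone over all genes (limma adjusted p = 0.133 and 0.160). The average of both, a comparison added after the data were seen, was 0.96 ± 0.17, a 1.94-fold higher signal, and passed narrowly (limma adjusted p = 0.0448).

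In that average Dsg2 was the only member called, 1 of 8, against 0.611% of all genes that were higher, and 0.725% of all genes were higher without overlap. Dsg2 ranked 127th by p. Its call was lost without double KO replicate 1, 2 or 3, Cxcr6 KO replicate 2 or 3, Nemo KO replicate 1 or wildtype replicate 1 (limma adjusted p of 0.072 to 0.137), and its difference then stayed between 0.84 and 0.98. It was also lost with a replicate block, without the filter on low signals and with a trended robust variance (limma adjusted p = 0.067, 0.073 and 0.056). The Nemo effect on Dsg2 was 0.14 ± 0.17 on average, with a 95% interval of -0.24 to 0.52. The intervals for Dsg2 in double KO against Cxcr6 KO and in Nemo KO against wildtype were -0.46 to 0.57 and -0.35 to 0.79.

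**Figure D4:**
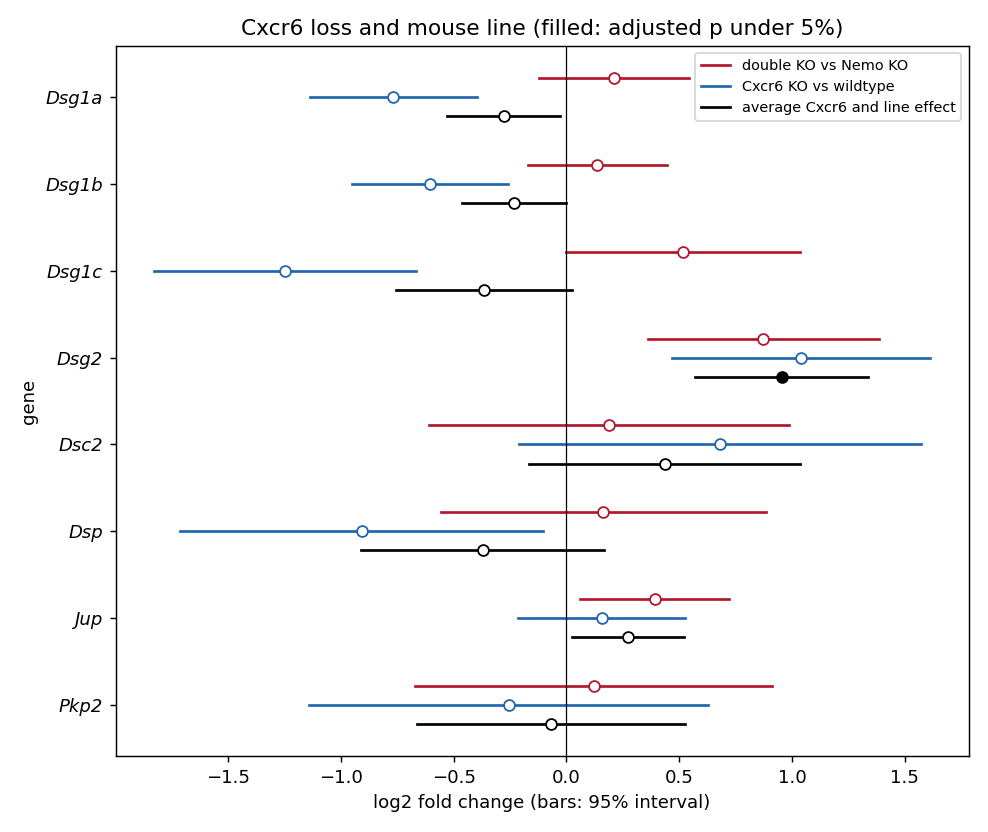
Log2 fold changes of the 8 genes for double KO against Nemo KO, Cxcr6 KO against wildtype and the average of both. Bars are 95% intervals, and the filled point passed an adjusted p of 5%. Dsg2 was higher in both comparisons, by 0.87 and 1.04, and the intervals of the 3 Dsg1 genes lay below 0 in Cxcr6 KO against wildtype.

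Desmocollin 2, the partner cadherin of Dsg2, differed more between the wildtype arrays than the other 7 members did. Dsc2 had signals of 11.63, 11.93 and 12.34 in double KO, 11.76, 12.09 and 11.48 in Nemo KO, 11.35, 11.82 and 11.64 in Cxcr6 KO, and 10.18 and 11.67 in wildtype. Wildtype replicate 1 was lower than every other array, and wildtype replicate 2 lay within the range of the others. The average Nemo effect was 0.60 ± 0.27 (limma adjusted p = 0.141) and the difference of Nemo KO from wildtype was 0.85 ± 0.40 (limma adjusted p = 0.222). Without wildtype replicate 2 these became 0.98 and 1.60 and passed (limma adjusted p = 0.00938 and 0.0199), and without wildtype replicate 1 they were 0.23 and 0.10.

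Of the plaque genes, plakoglobin gave the smallest spread. Jup, which also binds classical cadherins, had signals of 7.85, 7.83 and 8.02 in double KO, 7.58, 7.33 and 7.62 in Nemo KO, 7.73, 8.19 and 8.27 in Cxcr6 KO, and 7.85 and 7.96 in wildtype. The Nemo KO arrays were the 3 lowest of the 11. Between double KO and Nemo KO the difference for Jup was 0.39 ± 0.15 (limma adjusted p = 0.234), where 12.9% of all genes were higher without overlap. It was 0.40 ± 0.16 lower in Nemo KO than in wildtype (limma adjusted p = 0.176), where 24.7% of all genes were lower without overlap. The average Nemo effect was -0.28 ± 0.11 (limma adjusted p = 0.105) and passed without Cxcr6 KO replicate 1 (-0.36, limma adjusted p = 0.026).

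Desmoplakin, the keratin linker, was called in no comparison. Dsp had signals of 11.84, 11.93 and 12.80 in double KO, 12.14, 12.27 and 11.67 in Nemo KO, 11.47, 11.86 and 11.77 in Cxcr6 KO, and 13.11 and 12.10 in wildtype. Double KO replicate 3 and wildtype replicate 1 stood above the rest. The average Nemo effect was -0.05 ± 0.24, with a 95% interval of -0.59 to 0.49, and its sign turned to 0.04 with quantile normalization. The estimate was 0.49 ± 0.32 in double KO against Cxcr6 KO and -0.58 ± 0.36 in Nemo KO against wildtype, and the interaction was 1.07 ± 0.48 (limma adjusted p = 0.427). Without double KO replicate 3 the first of these was 0.18. Without wildtype replicate 1 the difference between Nemo KO and wildtype was -0.08 and the interaction 0.57, and without wildtype replicate 2 they were -1.09 and 1.57. In Cxcr6 KO against wildtype the difference was -0.91 ± 0.36 (limma adjusted p = 0.384), -0.40 without wildtype replicate 1 and -1.41 without wildtype replicate 2.

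Plakophilin 2, an armadillo-repeat protein that clusters desmoplakin at the plaque, did not pass in any comparison. Pkp2 had signals of 10.34, 10.20 and 11.37 in double KO, 10.84, 10.38 and 10.34 in Nemo KO, 10.01, 10.16 and 10.27 in Cxcr6 KO, and 9.84 and 10.97 in wildtype. Double KO and wildtype each held 1 array more than 1 unit above another of the same group. The average Nemo effect was 0.30 ± 0.26 (limma adjusted p = 0.464), with a 95% interval of -0.29 to 0.90. It was 0.02 without wildtype replicate 1 and 0.58 without wildtype replicate 2. In Nemo KO against wildtype Pkp2 differed by 0.12 ± 0.39, which became -0.45 without wildtype replicate 1 and 0.68 without wildtype replicate 2.

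The members did not move as a unit. In Nemo KO against wildtype 3 were higher and 5 lower, with a median log2 fold change of -0.49, against -0.04 over all genes. In double KO against Cxcr6 KO 4 were higher and 4 lower, with a median of -0.05, against -0.06 over all genes. In double KO against Nemo KO the estimates of all 8 were positive, none passed (0.594% of all genes were called), and the median was 0.20 against 0.04 over all genes. With each array centred on its median, the median over all genes in that comparison was 0.16. These member counts and medians include all 3 Dsg1 rows, which cannot be taken as independent. After subtraction of group means Dsc2 correlated with Dsg2 at 0.745 and with Pkp2 at 0.774 over the 11 arrays, whereas Dsg1c correlated with Dsg2 at -0.707. These are descriptions over arrays that share their normalization.

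Genes of other junctions are read against the shares of all genes called in the average Nemo effect, 4.84% higher and 15.4% lower. Of 11 further desmosome and plaque genes 4 were tested, and in the average Nemo effect 1 rose and none fell. This was periplakin, Ppl, a plakin of the cornified envelope that binds keratins. It rose by 1.16 ± 0.27 on average (limma adjusted p = 0.0202) and by 1.90 ± 0.36 in double KO against Cxcr6 KO (9.94 ± 0.28 in double KO, 8.04 ± 0.36 in Cxcr6 KO, limma adjusted p = 0.0222). In Nemo KO against wildtype it was 0.42 ± 0.40 higher (limma adjusted p = 0.564). The remaining 3, Pkp4 (0.16 ± 0.10), Perp, a p53-induced tetraspan protein of desmosomes (-0.19 ± 0.18), and Cdsn (0.03 ± 0.13), did not pass.

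Of 17 tight junction genes tested, 3 rose and none fell in the average Nemo effect, against 4.84% of all genes that were higher and 15.4% that were lower. Their median was 0.32 against -0.04 over all genes, and 2 of the 17 had estimates below 0. The 3 that rose were claudin 1, Cldn1 (1.09 ± 0.25, limma adjusted p = 0.0184), the angulin Lsr of tricellular junctions (0.77 ± 0.21, limma adjusted p = 0.033), and Cldn4 (0.34 ± 0.10, limma adjusted p = 0.0431). Cldn4 stayed near the array medians at 5.33 ± 0.14 in double KO and 5.42 ± 0.16 in Nemo KO, against 5.01 ± 0.15 in Cxcr6 KO and 5.07 ± 0.25 in wildtype. Cldn1 means were 13.76 ± 0.39 in double KO and 13.47 ± 0.48 in Nemo KO, against 11.75 ± 0.25 in Cxcr6 KO and 13.31 ± 0.73 in wildtype, so Cxcr6 KO lay apart from the other 3 genotypes. Igsf5, the next by p, was 0.23 ± 0.09 higher and did not pass (limma adjusted p = 0.114). Taken by line, none of the 17 was called in Nemo KO against wildtype, with a median of 0.10. For double KO against Cxcr6 KO 3 were called higher, with a median of 0.36, against 3.44% of all genes.

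Among 9 adherens junction genes the cell adhesion receptor Nectin1 rose (0.86 ± 0.21, limma adjusted p = 0.0219) and none fell, against 4.84% of all genes higher and 15.4% lower. The median of the 9 was 0.23, and 1 had an estimate below 0. The classical cadherins were higher without passing, Cdh2 by 0.52 ± 0.17 (limma adjusted p = 0.0559) and Cdh1, E-cadherin, by 2.65 ± 0.87 (limma adjusted p = 0.0598). Cdh1 spread widely between the wildtype arrays, at 6.95 and 12.30, and Nectin2 was 0.50 ± 0.23 higher (limma adjusted p = 0.154). Of 6 gap junction genes 2 were tested, the hepatocyte connexins Gjb2 (0.33 ± 0.21) and Gjb1 (0.08 ± 0.07), and neither passed. Taken by line, none of the 9 adherens junction genes was called. Their median was 0.06 in Nemo KO against wildtype and 0.31 in double KO against Cxcr6 KO.

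Of 11 keratin and hemidesmosome genes tested, 3 rose and none fell, against 4.84% of all genes higher and 15.4% lower. The median of the 11 was 0.34, and 3 had estimates below 0. The 3 that rose were the tetraspanin Cd151 (1.15 ± 0.20, limma adjusted p = 0.0105), the plakin dystonin, Dst (0.85 ± 0.21, limma adjusted p = 0.0237), and the laminin receptor subunit Itga6 (0.34 ± 0.09, limma adjusted p = 0.0341). Krt8, the hepatocyte keratin to which desmoplakin attaches, was higher in every array with Nemo deleted than in any with Nemo intact but just missed the threshold (1.20 ± 0.38, limma adjusted p = 0.0518; 2.03% of all genes were higher without overlap). Its means were 14.21 ± 1.04 in double KO and 13.76 ± 0.43 in Nemo KO, against 13.02 ± 0.09 in Cxcr6 KO and 12.55 ± 0.92 in wildtype. Taken by line, none of the 11 was called in Nemo KO against wildtype, with a median of 0.16. For double KO against Cxcr6 KO 2 were called higher, with a median of 0.46, against 3.44% of all genes.

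Markers of other cell types were followed in the same comparisons. In the average Nemo effect 9 of 10 endothelial markers, 7 of 8 stellate cell and fibroblast markers, 6 of 10 Kupffer cell and macrophage markers and 3 of 7 cholangiocyte markers rose, and none fell, against 4.84% of all genes higher and 15.4% lower. None of these was called in Nemo KO against wildtype, where 0.0491% of all genes were called higher. Their medians there were 0.52, 0.32, 0.69 and 0.20 in the same order. For double KO against Cxcr6 KO 9 endothelial, 7 stellate, 4 Kupffer and 3 cholangiocyte markers rose, against 3.44% of all genes. The medians there were 1.94, 0.98, 1.70 and 1.07. The mean of the endothelial markers ran from 7.57 to 9.30 in arrays with Nemo deleted and from 6.56 to 7.28 in arrays with Nemo intact. The Kupffer cell mean ran from 7.36 to 9.32 with Nemo deleted and from 6.59 to 7.70 with Nemo intact, and the stellate cell mean from 6.47 to 7.45 with Nemo deleted and from 5.76 to 6.30 with Nemo intact. For the 9 cholangiocyte markers with a row the mean ran from 5.80 to 6.71 with Nemo deleted and 5.58 to 6.02 with Nemo intact. The bile duct keratins Krt7 and Krt19 had group means between 4.93 and 5.67. Pkhd1 had means of 8.20 in double KO and 7.06 in Nemo KO, against 6.87 in Cxcr6 KO and 6.73 in wildtype. Those of Cd24a were 7.88 in double KO and 6.94 in Nemo KO, against 6.27 in Cxcr6 KO and 6.25 in wildtype. All 7 cholangiocyte markers tested had estimates above 0 in the average Nemo effect. Of 10 hepatocyte markers 2 fell in the average Nemo effect, a share near the 15.4% of all genes that were lower. They were the transcription factor gene Hnf4a (-0.57 ± 0.14) and Cyp2e1 (-0.30 ± 0.08, limma adjusted p = 0.0217 and 0.0285). Hepatocyte markers averaged 18.04 to 18.15 in arrays with Nemo deleted and 18.14 to 18.27 in arrays with Nemo intact. Some of them lay close to the highest value of all, 19.93, such as Alb (group means 19.87 to 19.93) and Trf (19.85 to 19.89). Whether signals this high could still follow a change in RNA was not tested. The part of these other cells in the junction results was not tested. Mesothelial markers averaged 4.76 to 4.96 over all arrays, T and NK cell markers 4.91 to 5.16 and neutrophil markers 5.02 to 5.29.

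**Figure D5:**
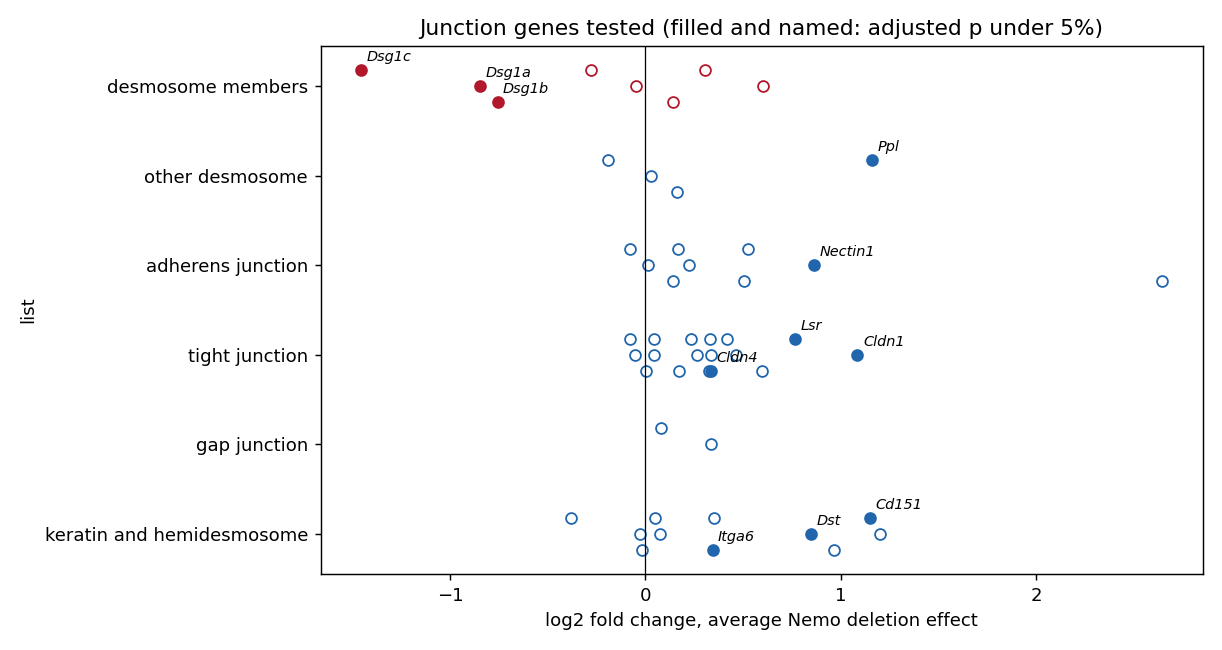
Log2 fold change of the average Nemo deletion effect for each junction gene tested, by list, with 1 point per gene. Filled, named points passed an adjusted p of 5%. The only called genes below 0 were Dsg1a, Dsg1b and Dsg1c, while the 8 called genes of the other lists, from 0.34 for Cldn4 to 1.16 for Ppl, lay above 0.

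Among named genes outside the set, the zinc-finger gene Zkscan1 had the signal pattern most like each desmoglein 1 row, with Pearson correlations over the 11 arrays of 0.973 with Dsg1a, 0.971 with Dsg1b and 0.965 with Dsg1c. Its means were 8.75 in double KO and 8.67 in Nemo KO, against 8.98 in Cxcr6 KO and 9.48 in wildtype. Tex12 (0.938) and Tsr2 (0.936) followed for Dsg1c, and Tsr2 (0.946) and Tex12 (0.933) for Dsg1a. For Dsg1b the next were Tex12 (0.960) and Cyp2c68 (0.940). The genes most like Dsg2 were Mri1 (0.955), Dock8 (0.945) and Asgr2, a subunit of the hepatocyte asialoglycoprotein receptor (0.939). Those for Dsc2 were the receptor gene Erbb3 (0.973), Psd4 (0.959) and Cblc (0.957). Dsp was most like Crtc3 (0.951), Chd8 (0.939) and Rnf31 (0.938), Jup most like Prkaa1, a catalytic subunit of AMP-activated kinase (0.965), Mcrip1 (0.961) and Rab35 (0.960), and Pkp2 most like Amot (0.945), Nfkbiz (0.935) and Aig1 (0.934). These are the highest of many correlations over 11 arrays in 4 groups and are given as a description.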

How the data were processed

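Hepatocyte RNA (300 ng per sample, amplified and biotin-labelled per the labels' protocols) was measured on 11 arrays. Values deposited by the authors are log2 signals, 1 row per transcript cluster, made with Affymetrix Expression Console, RMA and Transcriptome Analysis Console, per the submitters' processing notes, with no versions given. No genome build is named in the labels. The table has 65956 rows, of which 30604 have 1 symbol in the platform annotation, and rows with several symbols (2146) or none (33206) were left out. Matching gene identifiers to RefSeq (GRCm38.p6) succeeded for 22818 rows and changed 827 symbols. Per gene the row with the highest mean was used, and genes entered the test where at least 1 group mean was 5.27 (the median over row means) or more.

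All 4 groups entered 1 limma 3.58.1 fit (R 4.3.3, lmFit and eBayes, 7 residual and 2.13 prior degrees of freedom), two-sided, with Benjamini-Hochberg adjustment over all 18337 genes and calls at 5%. Errors of fold changes are standard errors, and intervals are 95% from the same fit. The number of arrays limits the precision.

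Members and lists were chosen with earlier results of these data known. Named genes were the 8 members, up to 4 genes per junction list with the smallest p of the average Nemo effect, and for each member the 3 genes of highest correlation, without predicted models, olfactory receptors and small RNAs. Alternatives were a replicate block, no filter, quantile normalization, median centring, a trended robust variance, array weights, the lowest-mean row per gene, fits of the compared groups alone and leaving out each array. The average Cxcr6 and line effect was added after the data were seen.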

Additional observations from a re-analysis of the deposited data

How the results depend on the processing

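The average Nemo effect on Dsg1a, Dsg1b and Dsg1c kept its direction and call in every alternative run. Each member has 1 row, so the lowest-mean row could not change the fold change of any member. Over all member results and alternatives, 966 kept direction and side of the threshold, 42 lost the call, 7 gained it and 25 changed sign, all 25 in estimates that did not pass. The causes were not tested. For Nemo KO against wildtype, 3 members were called, against 0 with a replicate block, array weights or the compared groups alone and 1 without the filter; genes called numbered 29, against 0 with the block, weights or compared groups alone, 7 without the filter, 11 with quantile normalization or a trended robust variance and 1274 with median centring. For double KO against Cxcr6 KO, array weights called 3 members and 4692 genes, and the compared groups alone 2766 genes. Quantile normalization split that comparison into 647 higher and 1094 lower, and median centring into 656 higher and 463 lower, against 631 and 727. For double KO against Nemo KO, array weights called 1 member, Dsg2, and 971 genes, the block 61, median centring 200 (174 higher, 26 lower), the compared groups alone 11, and quantile normalization 66 higher and 22 lower, against 67 and 42. For Cxcr6 KO against wildtype, 24 genes were called with the block or without the filter, 28 with median centring, 16 with weights and 0 with the compared groups alone. In the average Cxcr6 and line effect 0 members were called with the block, without the filter or with a trended robust variance, and 53 genes with the block and 90 without the filter. Median centring moved the median of all genes in the interaction to 0.17, against 0.03.

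Leaving out 1 array at a time gave 0 to 4 members for Nemo KO against wildtype, 3 to 4 for the average Nemo effect and 0 to 1 for the average Cxcr6 and line effect. Genes called ranged from 0 to 2369 for Nemo KO against wildtype, 116 to 2352 for double KO against Cxcr6 KO, 1369 to 5026 for the average Nemo effect, 19 to 161 for double KO against Nemo KO, 8 to 486 for Cxcr6 KO against wildtype, 0 to 230 for the interaction and 36 to 343 for the average Cxcr6 and line effect. A lone wildtype array is then assumed to vary like the other groups.

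Signs changed when single arrays were left out, with ranges of -0.0145 to 0.46 for Dsg2 in Nemo KO against wildtype, -0.45 to 0.68 for Pkp2 in Nemo KO against wildtype, -0.0644 to 0.12 for Dsg2 in double KO against Cxcr6 KO, -0.30 to 0.20 for Dsp in the average Nemo deletion effect, -0.14 to 0.34 for Dsp in double KO against Nemo KO, -0.25 to 0.34 for Pkp2 in double KO against Nemo KO. The others were -0.0671 to 1.43 for Dsc2 in Cxcr6 KO against wildtype, -0.82 to 0.31 for Pkp2 in Cxcr6 KO against wildtype, -0.40 to 0.0708 for Dsg2 in the interaction, -1.24 to 0.26 for Dsc2 in the interaction, -0.19 to 0.94 for Pkp2 in the interaction, -0.35 to 0.21 for Pkp2 in the average Cxcr6 and line effect. Dsp turned to 0.0387 in the average Nemo effect with quantile normalization, and with array weights Dsg2 to -0.0201 in double KO against Cxcr6 KO and Pkp2 to -0.166 in double KO against Nemo KO.

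Deviations from group means correlated between -0.272 and 0.275 for same-numbered arrays, and between -0.418 and 0.291 for arrays of different number. Deviations cancel out within groups of 3 or 2 arrays, so this check cannot tell whether replicate numbers pair the samples. The adjusted p of the 3 Dsg1 genes in Nemo KO against wildtype was 0.060 with the replicate block.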
